A study of Oryza sativa with 3 samples.

Results

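In parts of the rice genome the nucleosome calls lay so close together that no set of nucleosomes could fill all of the called positions at once. Long runs of such calls were selected on the call positions of the paired-end library alone. Calls were sorted by their centres on each chromosome, and a run was the longest stretch in which every adjacent pair of centres lay 100 bp or less apart. Runs with 15 or more calls were taken as long runs. Of 1261245 runs, single calls included, 5518 (0.438%) were long. They held 98318 of the 3456855 calls (2.84%) and covered 1.89% of the genome.

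The data came from leaf tissue of 2-week-old seedlings of the rice cultivar Nipponbare, whose nuclei were digested with MNase, and the mono-nucleosomal DNA was sequenced. The paired-end library, biological replicate 2, gave the nucleosome calls. The single-end library, biological replicate 1 with 2 technical replicates pooled in the deposited file, gave the reads, at 71.3 reads per kb over the genome. Both libraries came from the same tissue, stage and treatment, so the comparison was between long runs and other regions, not between conditions.

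A nucleosome wraps DNA around a histone octamer, and the linker DNA between nucleosomes is open to MNase. Reads of mono-nucleosomal DNA therefore begin near the edge of a protected particle, and the 5' ends of a forward and a reverse read bracket it. Where nucleosomes take the same positions in most cells of a tissue they are called phased, and the ends then recur at the distance from one nucleosome to the next. Where positions differ from cell to cell they are called fuzzy, and a caller can report overlapping positions that belong to different cells.

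The runs were short arrays of crowded calls. A long run had a median of 17 calls (5th to 95th percentile 15 to 24, highest 128), and the median span from the first to the last centre was 1074 bp (range 745 to 7685 bp). Runs of 15 to 19 calls made up 4402 of the 5518, runs of 20 to 29 calls 1012, and runs of 30 or more calls 104. Just inside the threshold were 1601 runs of 15 calls, and just outside it 2278 runs of 14 calls. Their single-end read densities were alike, 87.5 reads per kb in runs of 15 calls and 87.3 in runs of 14.

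The centres of adjacent calls in the runs were 68.4 ± 16.2 bp apart (SD over 92800 distances, median 67 bp), with the most frequent distance at 61 bp. These values describe the selection and are no finding. Over all calls, 63.5% of adjacent distances were 100 bp or less, and these averaged 68.3 ± 15.8 bp (SD). The spacing within long runs was thus that of close calls anywhere, and what the rule picked was how many followed each other. Each call is 120 bp long in the deposited list, so adjacent calls in a run overlapped. The next call but 1 was 137 ± 24.5 bp away and the next but 2 was 205 ± 31.2 bp away (SD). Beyond the ends of the runs, the next call lay a median of 121 bp away (95th percentile 240 bp).

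The word fuzzy was checked against the data in 2 ways. The deposited score of each call, which comes from nucleR and whose scale is not defined in the sources used here, did not set the runs apart. Calls in long runs had a median score of 0.470 (5th to 95th percentile 0.265 to 0.721), and all calls had a median of 0.469 (0.257 to 0.736). The single-end reads, which the selection did not use, are the other check. For this the 5' end of each read was moved 73 bp inward to the centre of the nucleosome. Read centres within 10 bp of a call centre were set against the mean within 200 bp of it, and calls outside the runs were weighted to the scores of calls in the runs.

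Taken over all scores, single-end reads marked the calls in the runs. The height at the centre was 1.31 for calls in long runs and 1.44 for other calls of the same scores (SD over chromosomes 0.0129 and 0.0143, n = 12), and it was lower in the runs on 12 of 12 chromosomes. The same order held in each of the 10 score classes, from the lowest (0.708 in runs, 0.722 outside) to the highest (2.17 in runs, 2.46 outside). In the lowest score classes the height in runs was below the mean of the surroundings (0.708, 0.886 and 0.991). At other calls it was so in the lowest classes as well (0.722 and 0.923). Single-end reads thus did not mark the calls of these classes. Over all scores the levels at the centre itself were close, with 111 read centres per kb in the runs and 114 at other calls. The surroundings differed more, with a mean within 200 bp of 84.3 per kb in the runs and 79.5 at other calls. The rule itself places other calls in these surroundings, so the lower height is no evidence of weaker positions in the runs.

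A comparison added after these values were seen took only calls with at least 3 calls of their run on each side, which have close neighbours in both classes. The height was then 1.30 for 65210 calls in long runs and 1.33 for 252360 calls of the same scores in runs of 7 to 14 calls (SD over chromosomes 0.0221 and 0.0188, n = 12). It was lower in long runs on 10 of 12 chromosomes and higher on 2. The difference (-0.0278) was slightly larger than the SD of either class, and its own SD over chromosomes was not computed. The score thus did not set the calls of long runs apart as fuzzy, and the height at the calls was only slightly lower in them.

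The profile around the calls had side maxima at 62 bp from the centre in both classes. This maximum reached 93.1 read centres per kb at calls in the runs and 82.0 at other calls, above the first minimum of 67.5 in the runs and 67.6 at other calls. A second maximum stood at 165 bp (94.1 per kb) in the runs and at 169 bp (88.2 per kb) at other calls. Close neighbours on the sides of a call are part of the selection, so the higher side maxima in the runs are a description. The distance of 62 bp is near the most frequent distance between adjacent calls in the runs (61 bp), although calls and reads came from different biological replicates.

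**Figure D1:**
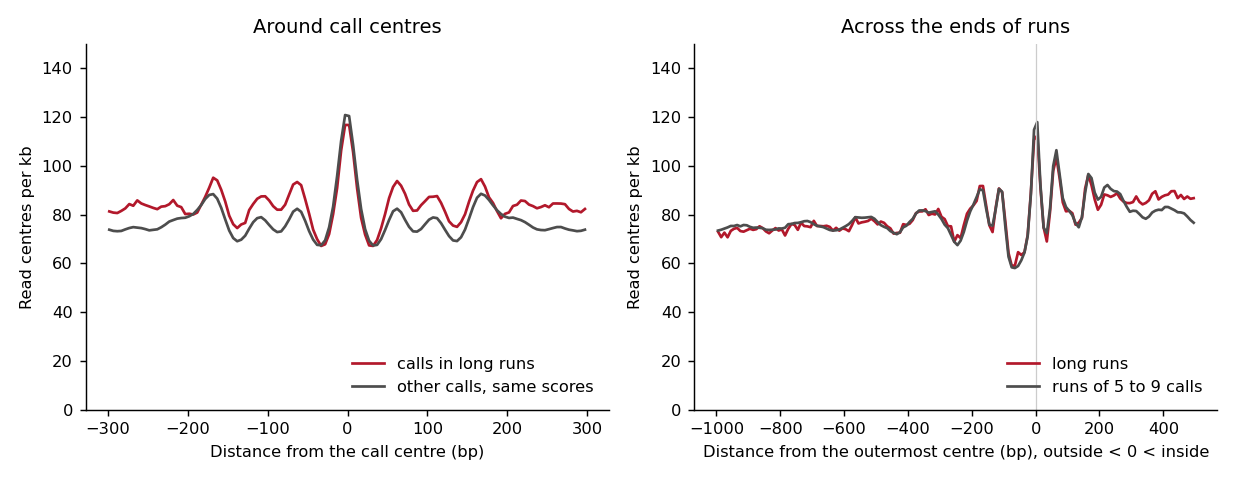
Read centres per kb (y axis) against the distance in bp from call centres (left; calls in long runs in red, other calls weighted to the same scores in grey) and from the outermost centre of a run (right; long runs in red, runs of 5 to 9 calls in grey; negative distances lie outside the run). Calls in long runs had higher side maxima at 62 bp (93.1 per kb in runs against 82.0 at other calls), and outside the run the profiles at the ends of long and short runs nearly coincided, while inside, where short runs can end before 500 bp, they separated.

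Over whole runs, read centres within 20 bp of any call centre were 1.147 times as dense as over the run (SD over chromosomes 0.00865, n = 12). The same measure was 1.373 in random windows. The classes differ in geometry, since 59.7% of the bases in runs and 40.6% of those in random windows lay within 20 bp of a centre. The larger this share, the lower the highest value that the measure can take. The difference is therefore given as a description, and how much of it came from this geometry was not tested.

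For the remaining measures, each run was compared with 10 random windows of the same length on the same chromosome that overlapped no long run, 55180 in all. A second set of 55180 covered windows was limited to places without a gap of more than 250 bp between adjacent call centres, since a run by its definition has no such gap. Errors are the SD over the 12 chromosomes or over 10 sets of 1 window per run. They describe spread within 1 library, as each form of the data had 1 biological replicate, and no test was made.

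Long runs were richer in single-end reads than the average of the genome but not than other places covered by calls. The runs held 588990 reads (2.22% of all reads), or 84.0 reads per kb, against 70.9 in random windows (SD over sets 0.597). The ratio was 1.18 (range over chromosomes 1.05 to 1.30), and the density was higher in the runs on 12 of 12 chromosomes. Against covered windows, which had 85.7 reads per kb, the ratio was 0.980 (SD over chromosomes 0.0608, range 0.881 to 1.09), with runs higher on 5 chromosomes and lower on 7. The excess was therefore seen only against windows that may contain gaps without calls. Forward reads made up 50.04% in runs and 50.05% in random windows.

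Single runs varied widely in read density, and the classes overlapped. The median was 89.6 reads per kb in runs (5th to 95th percentile 4.76 to 163), 68.6 in random windows (4.37 to 144) and 87.2 in covered windows (7.87 to 157). Of the runs, 42.4% had 100 or more reads per kb, against 24.6% of random windows and 38.8% of covered windows. At the low end, 14.4% of runs, 13.6% of random windows and 9.76% of covered windows had fewer than 20 reads per kb. The runs thus had more read-rich members than random windows and more read-poor members than covered windows. No read at all fell in 95 runs (1.72%) and in 944 random windows (1.71%).

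**Figure D2:**
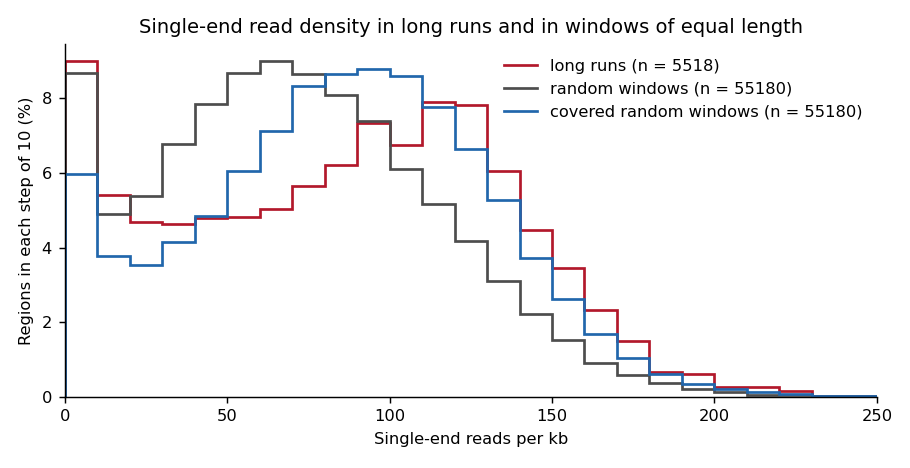
Share of regions (y axis, %) in steps of 10 single-end reads per kb (x axis, shown to 250) for long runs (red), random windows (grey) and covered random windows (blue). The medians were 89.6 in runs, 68.6 in random windows and 87.2 in covered windows, and the runs and both kinds of window had a further group of members below 10 reads per kb.

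Reads that repeat the position and strand of another read made up 15.6% of the reads in runs (SD over chromosomes 0.602), 14.4% in random windows (SD over sets 0.147) and 14.8% in covered windows. The share was higher in runs than in random windows on 12 of 12 chromosomes and higher than in covered windows on 10 of 12. At matched read density it was higher in runs only below 60 reads per kb. It was 14.5% in runs and 11.6% in random windows at 20 to 60 reads per kb, and 15.04% and 11.7% below 20. At 60 to 100 it was 13.1% in runs and 13.3% in random windows. At 100 to 140 it was 14.97% and 15.5%, and at 140 or more 19.02% and 19.03%. How much of the share was PCR duplication was not tested.

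Pooled over all regions of each kind, the protected length was the same inside and outside the runs. It was read as the most frequent length between 80 and 300 bp from a forward end to a downstream reverse end, both in the same region, after division by the number expected from the ends in that region. It was 148 bp in long runs, 148 bp in random windows and 148 bp in covered windows. On single chromosomes it lay between 139 and 151 bp in runs and differed from 148 bp by at most 1 bp in random windows. The runs held 588990 reads and the random windows 4971187, so the runs gave the wider spread at the lower depth.

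Below the range of this search the runs had a taller maximum that came mostly from 1 run. At 32 bp the value was 3.39 times the mean at 280 to 640 bp in runs, and the mean at 30 to 34 bp was 2.70 in runs, 1.15 in random windows and 1.09 in covered windows. The run chr5:29842291-29843388, in which most reads repeat another read, held 56.4% of the pairs at 30 to 34 bp in the runs. Without it the mean in runs was 1.18, and with each position and strand counted once it was 1.12 in runs, 1.11 in random windows and 1.10 in covered windows. Random windows also had a short maximum, 1.94 at 38 bp, which was 1.18 at 25 bp with each position and strand counted once. The length of 148 bp in runs was the same without that run and with each position counted once.

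The peak at this length was lower in the runs. Its height, the mean within 5 bp of 148 bp relative to the mean at 280 to 640 bp, was 1.34 in long runs (range over chromosomes 1.28 to 1.38), 1.60 in random windows (1.57 to 1.63) and 1.46 in covered windows. It was lower in the runs than in either kind of window on 12 of 12 chromosomes. A second, broader maximum at about the length of a dinucleosome was also lower, 1.05 at 324 bp in runs, 1.12 at 336 bp in random windows and 1.09 at 338 bp in covered windows (smoothed over 11 bp).

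Ends on the same strand recurred at the distance of nucleosomes in an array, and this signal was weak in the runs. The first maximum lay at 176 bp in runs (SD over chromosomes 10.5, range 167 to 206), at 182 bp in random windows (range 176 to 185) and at 181 bp in covered windows. The spacing was shorter in the runs than in random windows on 11 of 12 chromosomes and shorter than in covered windows on 11 of 12, by a mean of -4.83 bp (SD over chromosomes 9.15) and -8.08 bp (SD 10.5). Chromosome 9 was the exception, with 206 bp in runs, 185 bp in random windows and 186 bp in covered windows. Without it the range in runs was 167 to 182 bp, and the mean differences were -7.18 bp (SD 4.40) from random windows and -10.6 bp (SD 5.95) from covered windows. The method found a known spacing only within 5 bp on simulated reads, whose arrays were far more regular than those here. Its error at the weak signal of the runs was not measured, so a difference of this size may lie within it. Over the 10 sets of 1 random window per run the spacing ranged from 176 to 185 bp, so the lowest set equalled the runs. At 20 to 60 reads per kb the order was the other way, with 181 bp in runs and 175 bp in random windows. In the other bands of read density the runs had the shorter spacing. The maximum stood at 1.09 relative to the mean at 280 to 640 bp in runs, 1.17 in random windows and 1.12 in covered windows. The minimum after it was 0.996 in runs, 0.970 in random windows and 0.972 in covered windows. The second maximum was at 373 bp (1.03) in runs and at 382 bp (1.06) in random windows, so a repeat of the array remained visible in the runs.

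The swing, the mean within 10 bp of 181 bp minus the mean within 10 bp of 272 bp in percent of the same baseline, measured how regular the arrays were. It was 7.08% in long runs (SD over chromosomes 1.27, range 4.48 to 8.77), 18.7% in random windows (range 16.7 to 20.9) and 13.98% in covered windows. The ranges over chromosomes of runs and random windows did not overlap. The mean difference over chromosomes between runs and random windows was -11.7 percentage points (SD over chromosomes 1.15), and that between runs and covered windows was -6.94 (SD 1.23). The swing was lower in the runs on 12 of 12 chromosomes in both comparisons.

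**Figure D3:**
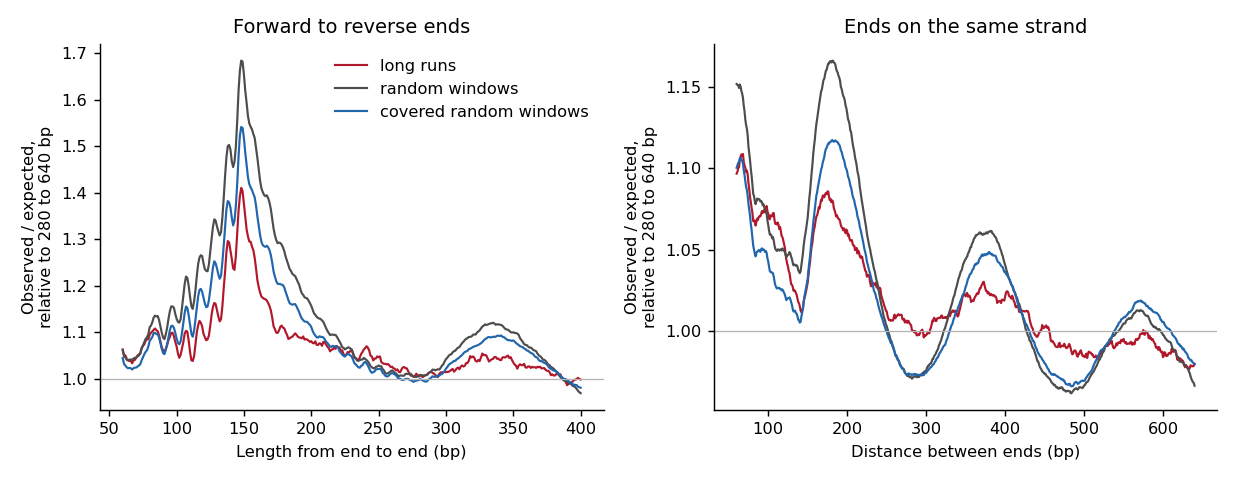
Observed over expected number of end pairs relative to the mean at 280 to 640 bp (y axes) against the length from forward to reverse ends (left, smoothed over 5 bp) and the distance between ends on the same strand (right, smoothed over 11 bp), both in bp, for long runs (red), random windows (grey) and covered random windows (blue). The ranges shown start at 60 bp, and the maxima near 148 bp and at the distance of neighbouring nucleosomes were lowest in the runs, such as 1.09 in runs against 1.17 in random windows at the first same-strand maximum.

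The lower values in the runs held at matched read density. Among regions with 20 to 60 reads per kb the swing was 9.39% in runs and 31.0% in random windows. At 60 to 100 reads per kb it was 7.80% in runs and 23.5% in random windows, and at 100 to 140 it was 6.75% in runs and 15.9% in random windows. At 140 or more reads per kb it was 6.94% in runs and 12.8% in random windows. The swing of random windows was lower in each band of higher density, while the runs were low in every band. The height at the protected length followed the same order, with 1.30 in runs and 2.02 in random windows in the lowest of these bands and 1.33 in runs and 1.42 in random windows in the highest. Call density was not matched in these bands. It was 14.07 calls per kb in runs and 8.12 in random windows in the lowest band, and 14.06 and 11.2 in the highest. Covered windows were not divided by read density.

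The runs lay at the far end of a gradient of call density. When random windows were divided by their number of calls per kb, the swing was 68.1% below 6 calls per kb, 39.4% at 6 to 8, 21.6% at 8 to 10, 13.02% at 10 to 12, 10.1% at 12 to 13 and 8.27% at 13 or more. The height at the protected length ran in the same order, 2.82 in the sparsest class and 1.38 in the densest. Long runs, with 14.02 calls per kb, had 7.08% and 1.34. The windows with 13 or more calls per kb numbered 2508 and had 88.3 reads per kb. From them the runs differed by -1.18 percentage points in swing, close to the SD over chromosomes of the difference from all random windows (1.15). The values of the runs were thus close to those of densely called windows that held no long run.

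**Figure D4:**
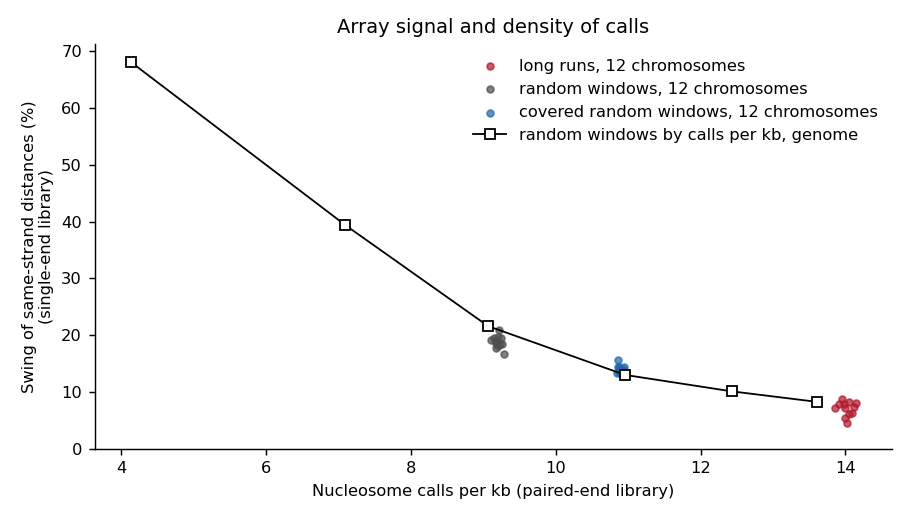
Swing of same-strand distances in the single-end library (y axis, %) against nucleosome calls per kb in the paired-end library (x axis). Coloured points are single chromosomes for long runs (red), random windows (grey) and covered random windows (blue), and open squares are random windows of the whole genome divided by calls per kb; the runs (4.48 to 8.77%) lay at the end of the curve, at more calls per kb than the densest windows (8.27%).

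A pattern of about 10 bp in the distances between ends, which follows the turn of the DNA helix on the nucleosome surface, did not differ in the same direction over chromosomes. Its amplitude was 2.25% in runs, 2.75% in random windows (SD over sets 0.855) and 2.30% in covered windows, with runs higher than random windows on 5 chromosomes and lower on 7. The SD rests mainly on 1 set at 5.18%, as the next highest was 2.58%. The lowest set, at 2.36%, was still above the runs. The period was 10 bp in runs and 10 bp in random windows.

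Outside their outermost calls, long runs resembled short runs. Read centres reached 111 per kb at the outermost call, stood at 59.2 per kb at 70 bp outside it and reached 91.5 per kb at 170 bp outside (11034 ends). At the 350236 ends of short runs of 5 to 9 calls the values were 116, 58.2 and 90.2 per kb, at nearly the same distances. Outside, up to 1 kb, the mean was 76.1 reads per kb for long runs and 76.3 for short runs. Inside long runs, up to 500 bp from the end, it was 86.8 reads per kb, a distance at which many short runs have ended. A trough and a maximum outside the outermost call were thus found at both kinds of end. The rule that ends a run is the same for both, and it leaves no call centre within its distance limit outside. Beyond the ends of long runs the nearest call centre was at least 101 bp away (median 121 bp). The trough is therefore part of the selection, and the likeness of the ends close to the outermost call is a description.

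Long runs occurred on every chromosome at similar density. There were 14.8 per Mb over the genome, with the most on chromosome 12 (460 runs, 16.7 per Mb) and the fewest on chromosome 10 (310 runs, 13.6 per Mb). Along the chromosomes, when each was cut into 10 equal parts, the 4th and 5th parts held 683 and 721 runs, or 12.4% and 13.1% of all runs against 10.2% and 10.3% of all calls. The other parts held 485 to 570 runs each. The concentration was stronger for the longest runs, since 23 and 32 of the 104 runs with 30 or more calls lay in the 4th and 5th parts. Much of this count came from single bins of 1 Mb that lie within these parts. The bins at chr7:12000001-13000000, chr1:17000001-18000000 and chr2:13000001-14000000 held 16, 10 and 10 of the 104. They also held 59, 52 and 46 long runs, against a median of 14 per bin. Whether a concentration remains in these parts without such bins was not tested. Positions of centromeres were not used here.

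**Figure D5:**
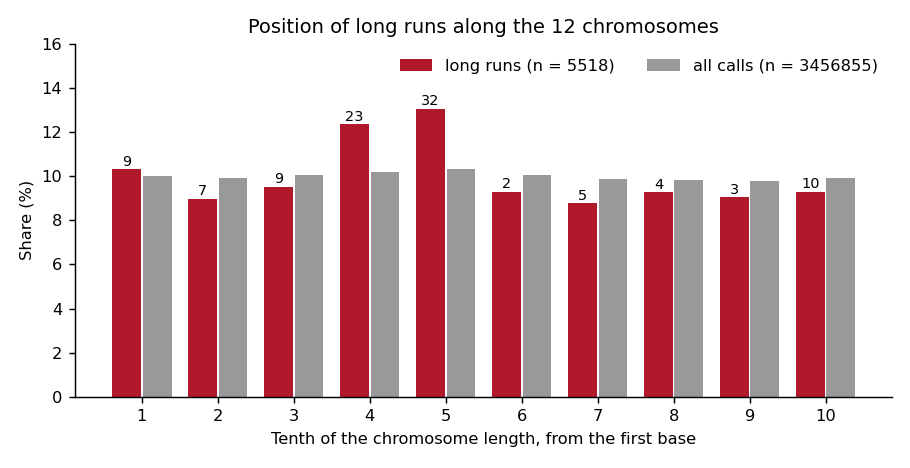
Share (y axis, %) of the long runs (red) and of all calls (grey) in each of 10 equal parts of the chromosomes (x axis, from the first base), pooled over 12 chromosomes, with the number of runs of 30 or more calls written above the red bars. The 4th and 5th parts held 12.4% and 13.1% of the long runs and 23 and 32 of the runs of 30 or more calls. Of the latter, 16, 10 and 10 lay in single bins of 1 Mb on chromosomes 7, 1 and 2.

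The gaps between neighbouring runs varied widely, and they were not compared with random placement. The median gap was 42237 bp and the mean 66084 bp, and 1033 of 5506 gaps (18.8%) were shorter than 10 kb, 237 of them shorter than 1 kb. In bins of 1 Mb the median was 14 runs (5th to 95th percentile 7 to 23.2, highest 59), and the 10 bins with the most runs held 392 runs and 49 of the 104 runs with 30 or more calls. The bin at chr7:12000001-13000000 held 59 runs, that at chr1:17000001-18000000 held 52 and that at chr2:13000001-14000000 held 46.

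In these 3 bins the runs were read-poor. The median density was 4.49 reads per kb in the 59 runs on chromosome 7, against 66.0 in the 130 random windows that fell in the same bin. It was 16.02 in the 52 runs on chromosome 1, against 50.6 in 110 random windows, and 20.1 in the 46 runs on chromosome 2, against 70.5 in 136 random windows. Fewer than 20 reads per kb were found in 38, 31 and 22 of the runs of the bins on chromosomes 7, 1 and 2. The crowded bins thus differed from the genome as a whole, where runs had more reads than random windows.

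Length of the run and read density were linked mainly at the upper end. Across all 5518 runs, Spearman's rho between calls per run and reads per kb was -0.0396, given as a description because runs share a library. Runs of 30 or more calls nevertheless had a median of 23.7 reads per kb (range 0 to 149), and 50 of the 104 (48.1%) had fewer than 20 reads per kb. Runs of 15 to 19 calls had a median of 91.3 reads per kb, and 13.2% of them had fewer than 20. The share of repeated reads was 24.0% in runs of 30 or more calls and 15.2% in runs of 16 to 19 calls. Only reads with a unique position were deposited, and how much of these runs can be mapped uniquely by 36-bp reads was not tested. With 11633 reads in the longest class, its protected length (86 bp) and spacing (140 bp, the lower bound of the search) were not reliable.

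The mean score of the calls in a run went with its read density more than its length did (Spearman's rho 0.307 across 5518 runs, a description). The score comes from the paired-end library and the reads from the single-end one. Mean scores per run ranged from 0.321 to 0.717, and the mean centre distance per run ranged from 49.9 to 84.1 bp.

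The run with the most calls was chr2:13614899-13622704, with 128 calls at 60.5 ± 16.8 bp (SD over the centre distances). It held 24 forward and 78 reverse reads, or 13.1 reads per kb, and 42.2% of these reads were repeats, while the 10 kb on either side had 24.9 reads per kb. The run was thus uneven between the strands and poorer in reads than its surroundings.

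The next was chr1:17070842-17076331, with 107 calls. Its distances were the most even of the 15 runs of 50 or more calls, 50.7 ± 6.39 bp between adjacent centres and 152 ± 10.02 bp from a call to the next but 2. It held 138 reads (72 forward and 66 reverse), or 25.1 per kb, of which 7.97% were repeats, close to the 21.8 reads per kb on either side. The next run began directly after it, at chr1:17076313-17079780, since the facing centres were 102 bp apart and so just missed the limit of 100 bp. That run had 60 calls and no read, which allows up to 0.865 reads per kb (3 reads, counting error only). The 167 calls of both runs were thus separated by this gap only, and the reads lay in the longer run.

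The third was chr2:334-4847, with 80 calls at 55.6 ± 14 bp, 339 reads and 75.1 reads per kb. It lay at the very start of the deposited chromosome. Most of the 10 kb before it is therefore absent, and its density was not compared with its surroundings. A run of 58 calls, chr6:31243427-31246750, lay at the other extreme, ending 6 bp before the last base of its chromosome, with 100.2 reads per kb. Long runs at chromosome ends were thus not read-poor against the genome (71.3 reads per kb) in these cases, which were picked after their values were seen.

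Another pattern of spacing was found on chromosome 7. The run chr7:12162123-12167618 had 68 calls at 80.2 ± 9.53 bp, with 160 ± 12.4 bp from a call to the next but 1, and 2 reads. The run chr7:12173489-12178258 had 58 calls at 81.6 ± 10.4 bp, with 163 ± 9.72 bp to the next but 1, and 11 reads. In the run of 58 calls the SD of the distance to the next but 1 was below that of the distance to the next, and in the run of 68 calls it was above it. Of the 59 runs in the bin, 29 had a mean centre distance of 78 bp or more, whereas the 95th percentile over all runs was 77.0 bp. These runs were chosen after their values were seen and are a description.

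Of the 95 runs at 0 reads, 12, 4 and 2 lay in the bins on chromosomes 7, 1 and 2. These bins held 59, 52 and 46 of the 5518 long runs, so runs at 0 reads were over-represented there. How the others were distributed was not examined. Among the 95 runs at 0 reads, those with the most calls were the run of 60 calls on chromosome 1 named above, chr7:12215584-12218500 with 35 calls at 82.2 ± 11 bp, and chr7:12190853-12193644 with 34 calls at 80.9 ± 10.2 bp. A count of 0 allows up to 1.03 and 1.07 reads per kb in the runs of 35 and 34 calls. Their surroundings had 0.5 and 0.2 reads per kb, so the stretch around the runs was nearly without single-end reads as well. The calls there rest on the paired-end library alone, and its reads were not analysed here.

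The runs with the most reads were short. The run chr5:29842291-29843388 had 15 calls and 943 reads (507 forward and 436 reverse), or 859 reads per kb, of which 94.3% were repeats, and its surroundings had 11.9 reads per kb. The run chr11:28416253-28417329 had 15 calls, 505 reads and 469 reads per kb, with 37.8% repeats and 160.9 reads per kb around it. The run chr12:20507065-20508443 had 18 calls, 621 reads and 450 reads per kb, with 36.7% repeats and 228.7 reads per kb around it. The first stood alone in a read-poor stretch, while the others lay in read-rich ones.

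The 15 runs of 50 or more calls lay on chromosomes 2 (4 runs), 1, 6 and 7 (3 runs each) and, with 1 run each, 4 and 5. Their median was 25.1 reads per kb, 7 of them had fewer than 20, and 5 exceeded the density of the genome. The share of repeats among those 5 ranged from 13.9% to 90.2%. The highest was at chr6:15462019-15465240, with 50 calls and 70 forward and 318 reverse reads. Among these longest runs, read density thus ranged between no read and 120.4 reads per kb.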

How the data were processed

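MNase-seq data of 3 samples in 2 libraries were used. The authors aligned 36-bp single-end reads with MAQ to TIGR release 5, allowed 1 mismatch and kept unique positions. The deposited positions pool both technical replicates. From the paired-end library the authors removed fragments over 200 bp, trimmed the rest to the middle 40 bp and called nucleosomes with nucleR, and the deposited score of each call is theirs. Positions are printed as deposited. A second, identical list of calls was not used.

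Runs, windows and distances were computed with numba 0.67.0, scipy 1.17.1, pandas 2.3.3 and numpy 2.4.6 in Python 3.11.15. Expected numbers of end pairs were computed per region from its ends and length. On simulated data 119 of 119 planted runs were found. In simulated windows a length of 147 bp was recovered as 147 bp and a spacing of 190 bp as 185 bp. The swing in these windows was 190.8%, and the simulated runs held no arrays, so weaker signals were not covered. With 71.3 reads per kb a median run holds few reads, so distances were pooled over runs.

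The members, measures and named runs (the 3 with the most calls, the most and the fewest reads per kb, the extreme chromosomes and the 3 fullest bins) were chosen with earlier results of these data known. No gene annotation of this release was at hand, so no genes are named.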

Additional observations from a re-analysis of the deposited data

How the results depend on the processing

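Of 84 changes of a setting across the results, 57 stayed within the SD over chromosomes (for the number of runs, within 1.5 times), and of 33 added after seeing the data 27 did. For some results this SD was too wide to show stability. The 10-bp amplitude differed by -0.505 with an SD of 0.909, so -0.0509 with covered windows counted as within it. The spacing had an SD of 10.5 bp, so 167 bp with at least 20 calls counted as within it of 176 bp. The mean difference in spacing (-4.83 bp) was also smaller than its SD (9.15). The ratio of read density in runs to that in windows reversed to 0.980 with covered windows and to 0.951 with windows of 13 or more calls per kb (added). Those windows also moved the ratio of heights at the protected length to 0.915 (covered) and 0.971 (13 or more calls), and the difference in swing to -6.90 and -1.18 percentage points. The number of runs was 15673 with at least 12 calls, 1116 with at least 20, 1088 with a limit of 90 bp, 19418 with 110 bp and 2364 with the 90% of calls of highest score. With 20 calls the density ratio was 1.07, the concentration 1.16, the repeated reads 16.3% and the height ratio 0.815. With 90 bp the concentration was 1.13 and the swing difference -12.7, and with 110 bp the concentration was 1.16. With the highest-scoring 90% of calls the density ratio was 1.26, the repeated reads 16.4%, the height ratio 0.804 and the swing difference -13.1. With each position and strand counted once the concentration was 1.13, the height ratio 0.862 and the swing difference -8.81. The concentration was 1.08 with a shift of 60 bp, 1.12 with 80 bp and 1.30 within 10 bp of the centre. The protected length was 151 bp after smoothing over 11 bp, and the height ratio 0.866 with partner ends also outside the run. Among the added settings, the difference in height at call centres (-0.126) was -0.0278 between calls with 3 neighbours on each side, and the value at 30 to 34 bp in runs (2.70) was 1.18 without 1 run and 1.12 with each position and strand counted once. Apart from the density ratio, no ratio or difference changed direction, and the cause of each move was not tested. The number of runs, the concentration, the repeated reads and the protected length were followed in the runs alone. So were the spacing and the value at 30 to 34 bp. For these results a change of direction against windows could not show.

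No paired analysis was possible because no test was made and the replicate numbers of the libraries differ. With 1 biological replicate in each form, none was left out in turn. Depth limits single runs and the class of 30 or more calls most, and counting limits take reads as independent.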
